A study of Mus musculus with 12 samples.

Results

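Leukaemia stem cells of mice that lack Terc, the RNA component of telomerase, were compared between samples labelled p-p53+ (Ser15) and samples labelled p-Foxo3a+ (Ser253). The members were the arrays whose labels give either phosphorylation status, 5 of 12 arrays in all. Replicates 2, 3 and 6 of the Terc-/- arrays carry the p-p53 label and replicates 1 and 4 carry the p-Foxo3a label. Replicates 2 and 6 were near-identical, with a correlation of 0.996 over all probes, and were averaged and counted as 1 sample, which left 2 samples against 2. Both groups are G3 Terc-/- cells of strain C57BL/6J that express the MLL-AF9 fusion oncogene with GFP. Per the labels, lineage-negative, Kit+, Sca1+ bone marrow cells carrying the fusion were given, 10000 per animal, to C57BL/6J recipients 6 to 8 weeks old after 5.5 Gy of irradiation. At the onset of leukaemia in each recipient, GFP+, lineage-negative, Kit+, Fcgr+ cells were sorted from the marrow and their total RNA was hybridised to Illumina bead arrays. The 6 wild-type (WT) arrays, prepared in the same way from cells with Terc, gave 5 samples after replicates 5 and 6 were averaged, and entered the fit for the spread between samples, but not the contrast. Their levels are given as a reference. Terc-/- replicate 5 has no phosphorylation status and entered no comparison. Neither labels nor methods say which promoter drives the fusion, how the phosphorylation was measured or whether samples came from separate animals. The p-values below therefore measure only the spread between these samples, which may be technical, and the number of arrays limits the precision.

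Telomerase extends chromosome ends, and cells bred without Terc over generations carry short telomeres that can be sensed as DNA damage. Kinases of the damage response phosphorylate p53 at Ser15, which favours its stability and its activity as a transcription factor of arrest and death genes. Akt phosphorylates Foxo3a at Ser253, which promotes its exit from the nucleus and lowers the transcription of FOXO targets. MLL-AF9 drives a self-renewal programme that includes Hoxa9 and Meis1 in myeloid progenitors, and the leukaemia stem cells of this model resemble granulocyte-macrophage progenitors.

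All levels below are log2 signals, so that 1 unit is a 2-fold difference, and each difference is the mean of 2 p-p53 samples minus that of 2 p-Foxo3a samples. A probe counted as above background at a level of 6.57. The test covered 11979 genes, and between 19456 and 19509 probes were above that limit on the Terc-/- arrays used. Kit, a gene of the sort gate, stood at 13.09 and 13.03 in the p-p53 samples (the average of replicates 2 and 6 first, then replicate 3) and at 13.24 and 12.77 in the p-Foxo3a samples (replicate 1, then replicate 4). Fcgr2b, an Fc receptor gene, stood at 12.32 and 11.84 against 11.71 and 11.42. Both genes of the gate were thus bright in all 4 samples. Hoxa9 stood at 9.92 and 10.27 against 9.63 and 10.44, and the groups overlapped. Xist, the RNA of the inactive X chromosome, stood at 13.01 and 8.93 against 12.81 and 12.81, and p-p53 replicate 3 was the low sample. Cd3e and Ly6g, which mark T cells and neutrophils, were not among the genes measured. No probe was assigned to Trp53 alone in the platform annotation, and the probe of Tert was not kept, so the levels of these genes are not analysed here.

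No gene passed an adjusted p of 0.05 between the groups in limma's moderated test with Benjamini-Hochberg adjustment over all genes (0 of 11979, 0% of those tested). The smallest adjusted p was 0.603. At an unadjusted p under 0.05 there were 615 genes (5.13%), of which 313 had the higher mean in p-p53 (2.61%) and 302 the lower mean (2.52%). That share is close to the share of the threshold itself. The mean of p-p53 was the higher in 51.8% of genes and the lower in 48.2%. Both p-p53 samples lay above both p-Foxo3a samples in 1865 genes (15.6%) and below both in 1679 (14%). A non-overlapping difference of at least 1 log2 unit was found for 61 genes higher in p-p53 (0.509%) and 113 lower (0.943%). An exact permutation test of 2 samples against 2 cannot go below p = 0.333 for a single gene.

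Samples of the same label were as far apart as samples of different labels. The p-p53 samples differed by 2-fold or more in 645 genes (5.38%), and the p-Foxo3a samples in 824 (6.88%). Across the labels the counts were 929 genes between p-p53 replicates 2 and 6 and p-Foxo3a replicate 1, 545 between p-p53 replicate 3 and p-Foxo3a replicate 1, 525 between p-p53 replicates 2 and 6 and p-Foxo3a replicate 4, and 506 between p-p53 replicate 3 and p-Foxo3a replicate 4. Only the pair of the averaged sample with p-Foxo3a replicate 1 exceeded both counts within a label. The difference within p-p53 exceeded the difference of the group means in 60.5% of genes, and the difference within p-Foxo3a did so in 66.7%. By correlation over genes, 3 of the 4 samples lay nearest to a WT sample and 1, p-Foxo3a replicate 1, nearest to p-p53 replicate 3 (0.972).

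**Figure D1:**
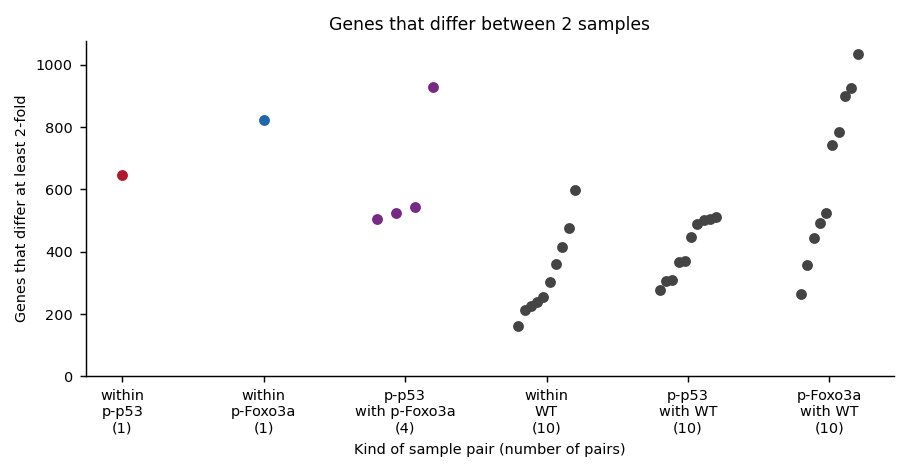
Genes that differed by 2-fold or more between each pair of samples, by the labels of the pair. The 645 genes between the p-p53 samples and the 824 between the p-Foxo3a samples lie above 3 of the 4 counts between labels, which run from 506 to 929.

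Each of the 4 samples had genes in which it stood apart. Genes at least 4-fold away from every other sample of the fit were counted by a rule chosen after the values were seen, so their levels are a description with no test. The averaged p-p53 sample had 8 such genes above the rest and 1 below, p-p53 replicate 3 had 1 and 0, p-Foxo3a replicate 1 had 11 and 9, and p-Foxo3a replicate 4 had 0 and 3. Among the WT samples, replicate 3 had 5 above and replicate 4 had 2 below. Otx1, a homeobox gene of the developing brain, stood at 13.83 and 13.78 on arrays 2 and 6. It stood between 6.41 and 6.51 in the other 3 Terc-/- samples of the comparison and between 6.21 and 7.12 in WT. Ehbp1, the next coding gene to Otx1 on chromosome 11, stood at 8.91 and 8.98 on the same arrays. Bmpr2, a receptor for bone morphogenetic proteins, reached 12.26 and 12.39 there, and Ica1l, separated from it by 1 coding gene on chromosome 1, reached 8.88 and 8.87. Both pairs of neighbours were thus high on the same arrays and low elsewhere.

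In p-Foxo3a replicate 1 the genes of its own included granulocyte genes. Stfa1, a stefin that inhibits cysteine proteases, stood at 9.88 against 14.98, 15.81 and 15.81 in the other 3 samples. Its neighbours Cstdc4, Cstdc5 and Stfa2 on chromosome 16 were also lowest in this sample. Hdc, which makes histamine, stood at 7.05 there against 13.29, 11.45 and 12.64. Vcam1, an adhesion receptor, stood at 7.31 against 12.34, 12.94 and 12.90. Apoe, an apolipoprotein of macrophages, stood at 10.72 against 7.86, 7.81 and 6.87. In p-Foxo3a replicate 4 the low genes were Chil3 at 10.48 and its neighbour Chil4 at 10.21, both chitinase-like proteins of myeloid cells, and Tnfsfm13 at 7.65. The stefin genes, and Chil3 with Chil4, are close copies whose probes may share signal, so their separate levels are uncertain.

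**Figure D2:**
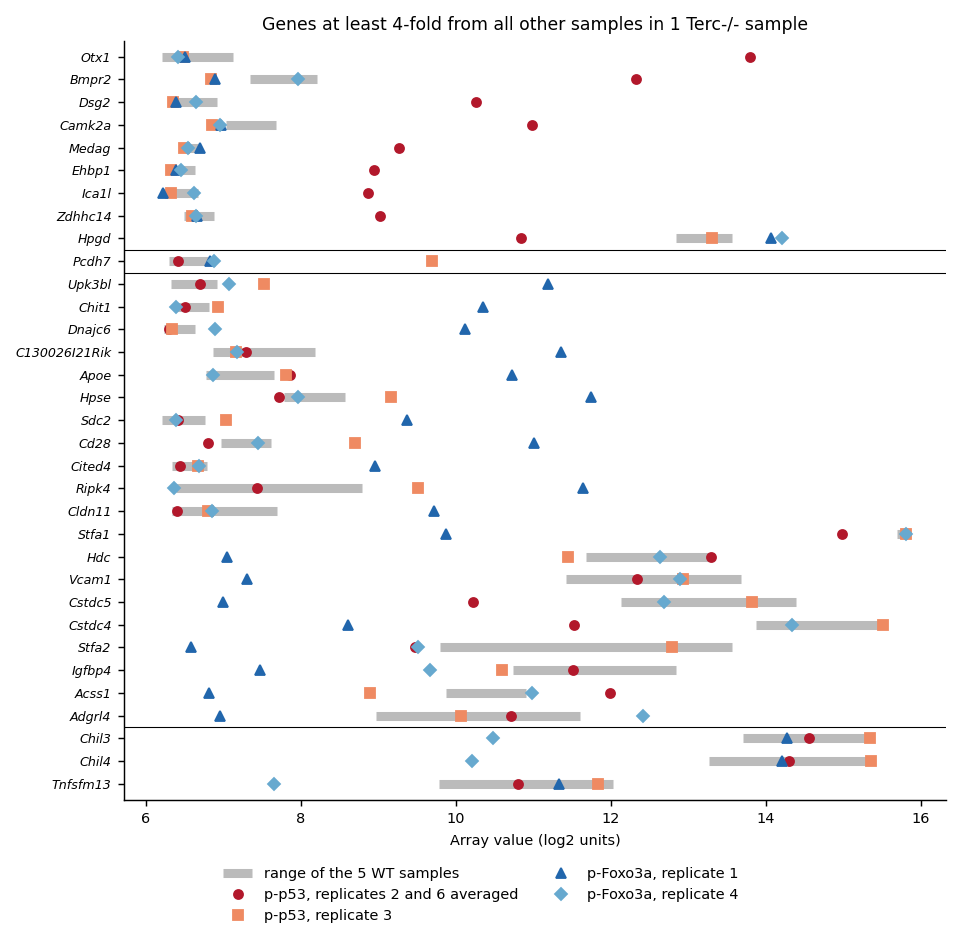
Log2 signal of genes that lay at least 4-fold from every other sample, by sample. Otx1 reached 13.80 in the averaged p-p53 sample, and Stfa1 stood at 9.88 in p-Foxo3a replicate 1, each away from all other samples.

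Whole stretches of chromosomes also stood apart in p-Foxo3a replicate 1. Over genes of level 8 or more, its median lay 0.38 above the WT median on chromosome 6 and 0.40 above it on chromosome 16. A run of 315 of the 317 such genes of chromosome 6 and a run of 201 of the 210 of chromosome 16 lay above WT. A run of 123 of the 493 genes of chromosome 2 had a median of -0.82 relative to WT. The medians of the other 3 samples over chromosomes 2, 6 and 16 lay within 0.05 of WT. Runs of this kind held 1506 of the genes tested (12.6%) and 104 of the 615 genes with an unadjusted p under 0.05 (16.9%). DNA copy number was not measured, and the part of these runs in the differences was not tested. Genes of smallest p or largest difference that lie in a run of p-Foxo3a replicate 1 are given with their difference from p-Foxo3a replicate 4 alone where that sample was above background.

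Among the 14 genes of smallest p with a lower level in p-p53, Rap1gap and Trps1 had the largest differences. Rap1gap, which switches off the small GTPase Rap1, stood at 6.28 and 6.35 in p-p53 and at 10.10 and 8.77 in p-Foxo3a. The p-p53 samples were at background and the p-Foxo3a samples were in or above the WT range of 8.29 to 9.51. The difference was -3.12 ± 0.46 (SE; limma, Benjamini-Hochberg adjusted p = 0.603), at least 7.30-fold. Trps1, a GATA-type repressor of transcription, stood at 6.79 and 8.41 against 11.85 and 10.43. Its WT range of 6.75 to 8.79 covered both p-p53 samples and neither p-Foxo3a sample, with a difference of -3.54 ± 0.74. Bcl11b, a factor of T cell commitment, stood at 6.71 and 6.49 against 8.47 and 8.52. Kcnq5, a potassium channel, stood at 6.83 and 7.19 against 8.24 and 8.62. Ly6k, a surface protein of the Ly6 family, stood at 6.77 and 7.08 against 9.06 and 8.04. Grb7, an adaptor of receptor tyrosine kinases, was at background in p-p53 and stood at 8.01 and 7.22 in p-Foxo3a, at least 2.07-fold. Bcl11b, Kcnq5, Ly6k and Grb7 were dim in p-p53, and above background in both p-Foxo3a samples. Scarf2, a scavenger receptor of chromosome 16, stood at 8.38 and 7.45 against 9.26 and 9.30, and its difference from replicate 4 alone was -1.38. The other genes of this side were H2aw, Reep6, Ube2o, Gpatch2, Vdr, Prr3 and Pdxp, with differences between -0.82 and -0.50. The other kept probe of Reep6 was near background and differed by 0.0071.

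Among the 14 genes of smallest p with a higher level in p-p53, Them7 came first. Them7, a thioesterase-family gene of chromosome 2, stood at 8.27 and 9.01 in p-p53 and at 6.95 and 6.43 in p-Foxo3a. The WT range of 7.10 to 7.55 lay between the groups. Its difference was 1.95 ± 0.27 (SE; limma, Benjamini-Hochberg adjusted p = 0.603), and p-Foxo3a replicate 4 was not above background. Ralgps2, an exchange factor for Ral GTPases, stood at 9.59 and 9.01 against 6.82 and 7.94. Chst15, a sulfotransferase of chondroitin sulfate, stood at 9.80 and 8.44 against 7.45 and 7.56. Slco3a1, an organic anion transporter, stood at 7.70 and 8.43 against 6.59 and 6.75. In these 3 genes the p-Foxo3a samples lay low, and the difference was 1.92, 1.61 and 1.40. Gsdmd, which forms the membrane pore of pyroptosis, stood at 11.72 and 11.52 against 11.01 and 10.88. Polg, the polymerase of mitochondrial DNA, stood at 9.15 and 8.74 against 8.16 and 8.12. Inpp5a, an inositol phosphate phosphatase, stood at 9.59 and 9.58 against 9.03 and 8.87. Plcb2, a phospholipase C, and Acp2, a lysosomal phosphatase, both on chromosome 2, differed by 0.85 and 0.86, and from replicate 4 alone by 0.64 and 0.67. Tmem223, Sla, Pgls, Fam50a and Fkbp2 differed by 0.46 to 0.94, and Fkbp2 lies in a run of chromosome 19 in p-p53 replicate 3. The WT mean was nearer to the p-p53 mean for 12 of these 14 genes and for 9 of the 14 lower ones, beside 60% of all genes tested and 77.4% of the 615 genes with an unadjusted p under 0.05.

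**Figure D3:**
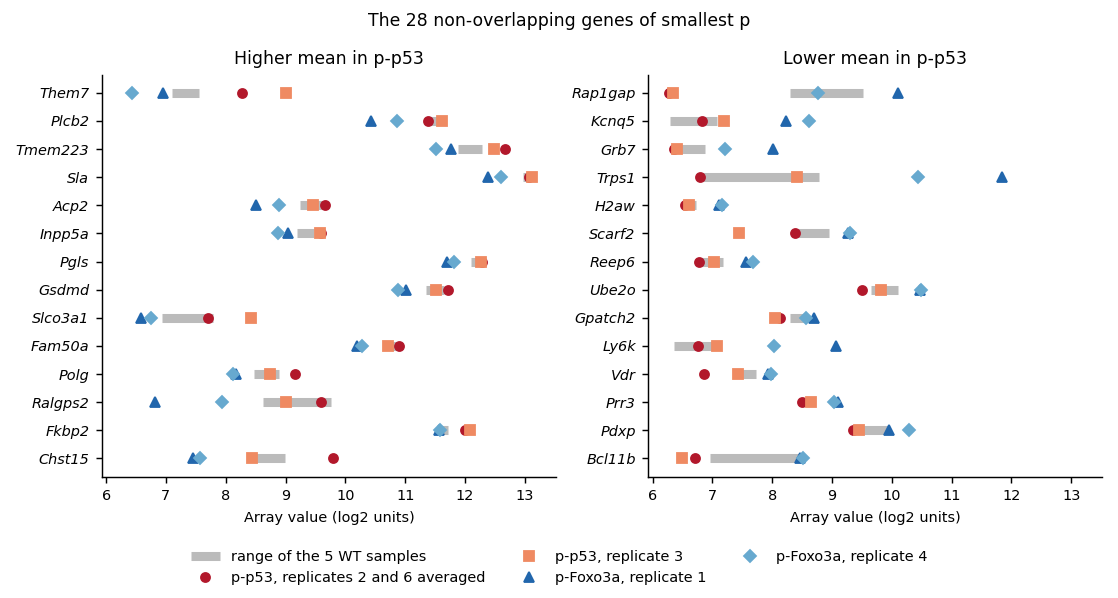
Log2 signal of the genes of smallest p in each direction, by sample, with the range of the WT samples. Rap1gap sits at 6.28 and 6.35 in p-p53 and at 10.10 and 8.77 in p-Foxo3a, and no gene shown passed the adjusted threshold.

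Among genes whose groups did not overlap, the largest differences besides Rap1gap and Trps1 were in genes that also varied widely within a group or among WT samples. Satb1, a chromatin organiser, stood at 13.51 and 12.01 in p-p53 and at 8.66 and 8.63 in p-Foxo3a, a difference of 4.12 ± 1.54. WT samples alone ran from 8.58 to 14.50, beyond both groups. Igfbp4, which binds insulin-like growth factors, stood at 11.51 and 10.60 against 7.47 and 9.66. Slc32a1, a vesicular amino acid transporter, stood at 10.69 and 9.21 against 8.16 and 6.92. Shisa2 stood at 10.84 and 8.67 against 6.66 and 8.06. Chil3 and Chil4 differed by 2.58 and 2.62, and both values rest on replicate 4, since replicate 1 stood at 14.28 and 14.21. In the other direction, Zfp36l1, which promotes the decay of mRNA, stood at 6.80 and 8.44 against 12.30 and 9.31. Fnbp1l, a membrane-bending protein, stood at 9.87 and 11.27 against 13.48 and 13.72. Gata2, a factor of stem and progenitor cells on chromosome 6, stood at 9.52 and 9.76 against 11.52 and 12.38, and its difference from replicate 4 alone was -2.74. The WT ranges of Zfp36l1 and Gata2 spanned the gap between the groups.

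Targets of p53 did not stand higher in the p-p53 samples. Of 45 measured targets, 14 had the higher mean in p-p53 and 31 the lower mean, with a median difference of -0.11 beside 0.01 over all genes. In p-p53, 1 target was higher and 5 were lower at an unadjusted p under 0.05, beside 2.61% and 2.52% of all genes, and none passed the adjusted threshold. Phlda3, a p53 target that restrains Akt, stood at 7.85 and 6.85 in p-p53 and at 7.84 and 7.68 in p-Foxo3a. Only p-p53 replicate 3 was near the WT range of 6.37 to 6.75, so the labels did not separate the samples. Cdkn1a, the p21 inhibitor of cyclin-dependent kinases, stood at 7.88 and 8.38 against 8.53 and 9.39. Mdm2, which targets p53 for degradation, stood at 11.23 and 11.79 against 11.73 and 11.75. Ccng1, a cyclin induced by p53, stood at 11.29 and 11.07 against 11.15 and 11.49, and another of its probes differed in the opposite direction, by 0.11. The groups overlapped for Phlda3, Mdm2 and Ccng1. Plk3 and Sesn2, both of stress responses, stood lower in p-p53 by 1.34 and 0.70 without passing the test, as did Dyrk3 by 1.19, and Apaf1, the scaffold of the apoptosome, stood 0.40 higher.

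Ccng1 and Mdm2 are shown because their windows hold a p53 decamer, in capitals, and neither gene separated the groups. The letters are those of the RefSeq promoter table in build GRCm38.p6, 5′ to 3′ on the gene's strand, at chr11:40755437-40755496 (minus strand) and chr10:117710909-117710968 (minus strand).
Ccng1: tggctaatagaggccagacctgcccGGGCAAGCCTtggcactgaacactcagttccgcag
Mdm2: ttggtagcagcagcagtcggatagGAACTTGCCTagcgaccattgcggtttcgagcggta
The decamer was found on either strand in 12 of the 37 targets with a window (32.4%). It was found in 9.55% of all 27025 genes with a window and in 8.28% of the 9730 tested genes with one. Of those 12 genes, 5 had the higher and 7 the lower mean in p-p53. A match is a description of the letters and not a site.

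For FOXO targets and the PI3K and Akt pathway the groups were also close. Of 37 FOXO targets, 13 had the higher and 24 the lower mean in p-p53, with a median of -0.09. Without p-Foxo3a replicate 1 the counts were 19 and 18 and the median was 0.00. Foxo3 itself stood at 7.38 and 7.80 against 7.51 and 8.32, and Foxo1, a related factor, at 6.56 and 6.69 against 7.25 and 7.15. Bnip3l, of mitochondrial autophagy, stood 0.51 higher in p-p53, and the difference of Fbxo32, a ubiquitin ligase of muscle wasting, was -0.75. Gabarapl1, of autophagosomes, lies in the chromosome 6 run of p-Foxo3a replicate 1. It stood at 9.14 and 8.66 against 10.59 and 9.43, a difference of -1.11, and of -0.53 from replicate 4 alone. Of 34 pathway genes, 16 had the higher and 18 the lower mean, with a median of -0.00. Inppl1, the lipid phosphatase SHIP2, stood at 8.25 and 7.68 against 9.43 and 10.07, a difference of -1.79 ± 0.44 (SE). Sgk1, a kinase related to Akt, differed by -1.07, and Pdpk1, the kinase upstream of both, by 0.29. Akt1 was at background in p-p53 and close to it in p-Foxo3a.

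Genes of G2/M and mitosis mostly had the higher mean in p-p53. Of 45 measured, 42 had the higher and 3 the lower mean, with a median difference of 0.42. In 22 of them both p-p53 samples lay above both p-Foxo3a samples, beside 15.6% of all genes tested. At an unadjusted p under 0.05, 9 were higher, beside 2.61% of all genes, and none passed the adjusted threshold in limma. The mean level of the list was 9.69 and 9.93 in p-p53, 9.15 in p-Foxo3a replicate 1 and 9.66 in replicate 4, beside 9.72 to 10.15 in WT. The lowest sample was p-Foxo3a replicate 1. Without it the counts were 38 and 7, beside 50.6% of all genes with the higher mean, and the median was 0.14. Without replicate 4 the median was 0.72. Plk1, a kinase of mitotic entry, stood at 11.18 and 11.56 in p-p53 and at 9.99 and 11.04 in p-Foxo3a. Nusap1, a spindle protein in the chromosome 2 run, stood at 11.94 and 12.34 against 10.38 and 11.65, a difference of 0.49 from replicate 4 alone. Tpx2, which activates Aurora A, stood at 8.96 and 9.13 against 8.13 and 8.67. Kif4, a chromosome-bound kinesin, stood at 10.23 and 10.67 against 9.71 and 9.92. In each of these genes replicate 1 was the lowest sample. For 41 of the 45 genes (91.1%) the WT mean was nearer to the p-p53 mean, beside 60% of all genes tested. The p-Foxo3a mean includes the low replicate 1.

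The CHR element, TTTGAA, is a motif through which the DREAM complex represses mitotic genes. It was found on either strand in 26 of the 36 list members with a RefSeq window (72.2%). The share was 20.2% of all genes with a window and 15.1% of the tested genes with one. Of those 26 genes, 25 had the higher mean in p-p53, and of the 10 without it 8 did. Plk1 and Kif4 are shown as list members with the element, in capitals, at chr7:122159452-122159481 and chrX:100626072-100626101 of GRCm38.p6, both on the plus strand.
Plk1: tcccagcgccgcgTTTGAAttcggggagga
Kif4: ctctgggatcaaTTTGAAacttggcggtta

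Immediate early genes, which cells transcribe within minutes of a stimulus, had the lower mean in p-p53 in 24 of 24 measured members, with a median of -0.83. In 11 of them both p-p53 samples lay below both p-Foxo3a samples, beside 14% of all genes tested. At an unadjusted p under 0.05, 2 were lower, beside 2.52% of all genes, and none passed the adjusted threshold in limma. The mean level of the list was 8.42 in the averaged p-p53 sample, 9.65 in p-p53 replicate 3 and 10.11 and 9.95 in p-Foxo3a, beside 8.35 to 9.76 in WT. Without the averaged sample the median was -0.20 and 5 genes had the higher mean. Without replicate 3 it was -1.43. Zfp36, which promotes the decay of inflammatory mRNAs, stood at 10.72 and 12.81 against 13.94 and 12.96. Dusp5, a phosphatase of ERK, stood at 6.80 and 9.40 against 10.93 and 9.76. Junb, an AP-1 subunit, stood at 9.64 and 10.21 against 10.62 and 10.59. In all 3 genes the averaged sample was the lowest and p-p53 replicate 3 lay nearer to p-Foxo3a replicate 4 than to it.

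Zfp36 and Dusp5 are shown because their windows hold the CArG box, the motif of serum response factor, in capitals. They lie at chr7:28379229-28379318 (minus strand) and chr19:53529025-53529144 (plus strand) of GRCm38.p6, and Dusp5 has 2 boxes side by side.
Zfp36: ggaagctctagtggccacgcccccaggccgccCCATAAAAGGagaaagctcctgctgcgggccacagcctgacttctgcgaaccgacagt
Dusp5: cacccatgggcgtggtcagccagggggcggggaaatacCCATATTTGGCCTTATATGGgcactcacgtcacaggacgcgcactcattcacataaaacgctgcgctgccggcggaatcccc
The box was found on either strand in 3 of 20 list members with a window. The share was 1.81% of all genes with a window and 1.66% of the tested genes with one.

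**Figure D4:**
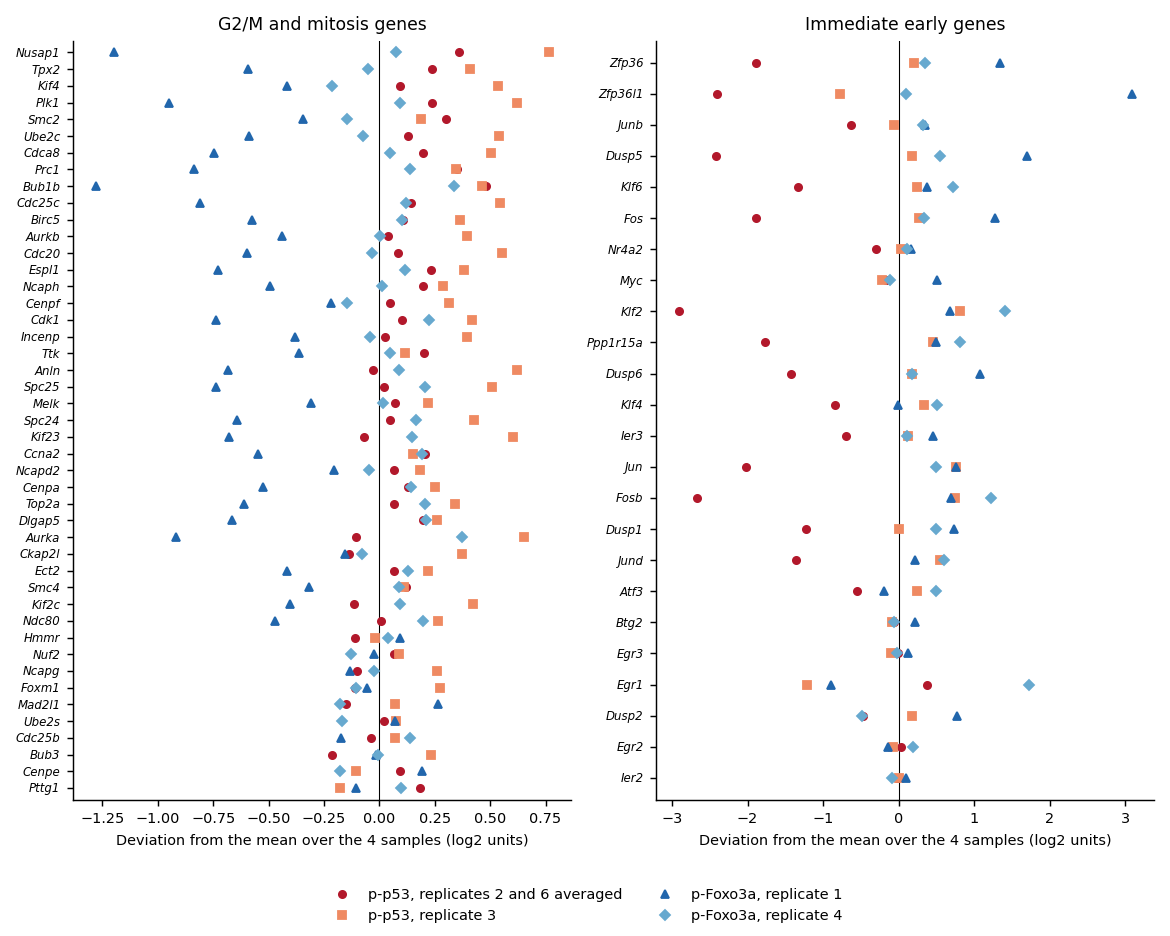
Levels of the G2/M and immediate early genes in each sample relative to their means. The G2/M genes are low in p-Foxo3a replicate 1, with a mean level of 9.15, and the immediate early genes are low in the averaged p-p53 sample, with a mean level of 8.42.

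Markers of several cell types differed between samples of the same label. In bulk RNA, fewer cells of a type and less RNA per cell cannot be told apart. Of 27 neutrophil markers measured, 22 had the higher mean in p-p53, with a median of 0.58. Their mean level was 9.69 and 11.53 in p-p53 and 10.46 and 9.33 in p-Foxo3a, so that the highest sample and a low one were both p-p53. Without p-p53 replicate 3 the median was -0.26, and without p-Foxo3a replicate 4 it was -0.30. Mcemp1, a membrane protein of myeloid cells, stood at 10.85 and 10.90 against 10.23 and 9.26. Ltb4r1, the leukotriene B4 receptor, differed by 0.65. Markers of mast cells, basophils and eosinophils had a mean level of 7.86 and 7.84 in p-p53, 7.07 in p-Foxo3a replicate 1 and 8.82 in replicate 4. The p-p53 samples lay between the p-Foxo3a samples. Of 20 granulocyte-macrophage progenitor markers, 14 had the higher and 6 the lower mean in p-p53, with a median of 0.14, and without p-Foxo3a replicate 4 the median was -0.02. Mpo, the myeloperoxidase of granulocyte progenitors, stood at 15.72, 15.59 and 15.60 in 3 samples and at 13.72 in p-Foxo3a replicate 4. Cd34, a progenitor surface marker and 1 of the 6 lower, stood at 7.23 and 7.80 against 8.85 and 9.06, a difference of -1.44 ± 0.47 (SE). Csf2ra, a subunit of the GM-CSF receptor, differed by 0.42. In some other cell type lists the mean levels did not overlap between the labels. An exact permutation test of 2 samples against 2 cannot go below p = 0.333, so such a separation is a description. Erythroid markers were among these lists, at 7.04 and 7.38 against 7.02 and 6.94. So were genes of the sort gate, at 9.72 and 9.71 against 9.83 and 9.76. Of 13 haematopoietic stem cell markers, 3 had the higher and 10 the lower mean in p-p53, with a median of -0.27. Their mean level was 7.36 and 7.54 against 7.82 and 8.26, beside 7.30 to 8.22 in WT. Of 7 T and NK cell markers, 2 had the higher and 5 the lower mean, with a median of -0.07. Their mean level was 7.45 and 7.49 against 7.77 and 7.77, beside 7.48 to 7.71 in WT. Bcl11b, named above among the genes of smallest p, is in this list with a difference of -1.89 and weighs heavily on its mean level. Of 24 monocyte and macrophage markers, 17 had the higher and 7 the lower mean, with a median of 0.25. Their mean level was 9.50 and 9.40 against 9.32 and 8.89, beside 9.01 to 9.44 in WT. The level of p-Foxo3a replicate 1 includes Vcam1, at 7.31 there against 12.34, 12.94 and 12.90, so the narrow gap to this sample depends on single genes. The part of these cell type markers in the other differences was not tested.

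Other programmes showed smaller shifts. Of 24 MLL fusion targets, 7 had the higher and 17 the lower mean in p-p53, with a median of -0.11. Chromosome runs held 11 of the 24 (45.8%), beside 12.6% of all genes tested. Hoxa9, in the chromosome 6 run of p-Foxo3a replicate 1, differed by 0.060, and by -0.34 from replicate 4 alone. Meis1, in a run of chromosome 11, stood at 11.53 and 12.26 against 12.54 and 13.01, and Mef2c, a myeloid and lymphoid factor, at 10.42 and 12.63 against 13.60 and 12.83. Of 26 glycolysis and hypoxia genes, 8 had the higher and 18 the lower mean, with a median of -0.15. Pfkm, a phosphofructokinase, stood at 8.77 and 8.55 against 10.53 and 9.63, and Pfkp, Aldoc and P4ha1 differed by -0.64, -0.97 and -0.44. Of 46 interferon-stimulated genes, 19 had the higher and 27 the lower mean, with a median of -0.03. It was 0.29 without p-Foxo3a replicate 1 and 0.11 without p-p53 replicate 3. Over all settings that left out p-p53 or p-Foxo3a arrays, this median ran from -0.22 to 0.29. Tapbp, which loads peptide onto MHC class I, stood at 8.82 and 8.88 against 9.83 and 9.45, and Ddx58, the RNA sensor RIG-I, at 7.96 and 7.86 against 7.55 and 6.71. The differences of these 2 genes had opposite signs. Bcl2, which blocks apoptosis, stood at 7.70 and 8.62 against 10.10 and 9.25, and its relative Bcl2a1d at 11.07 and 9.04 against 8.12 and 8.85. The median difference of DNA replication genes was 0.08, with 33 higher and 13 lower means, and without p-Foxo3a replicate 1 it was -0.11, with 10 and 36. Without p-Foxo3a replicate 4 it was 0.26. The median of ribosomal protein genes was -0.05.

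**Figure D5:**
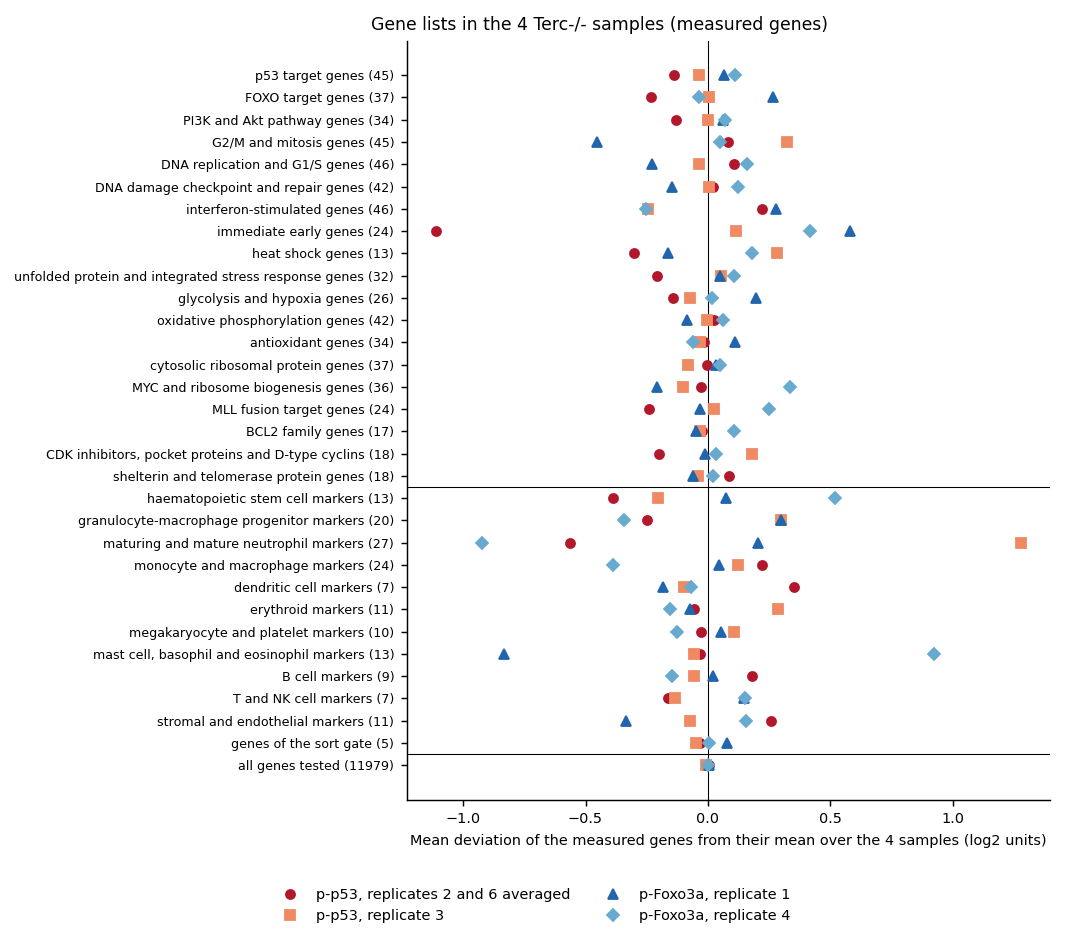
Mean deviation of each list's measured genes from their mean over the 4 samples, by sample, in log2 units. The averaged p-p53 sample, p-p53 replicate 3, p-Foxo3a replicate 1 and p-Foxo3a replicate 4 are given in this order. The G2/M list lies at 0.083, 0.32, -0.46 and 0.049. The neutrophil list lies at -0.56, 1.28, 0.21 and -0.92. The immediate early list lies at -1.11, 0.12, 0.58 and 0.42.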

How the data were processed

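The authors deposited log2 signals of 38502 probes on 12 arrays, in a series table. Per the submitters' processing notes, the software was GenomeStudio, with no version, and no source describes the normalization. Sorted values agreed between arrays to within 0.0945, and array medians ran from 6.571 to 6.578. A raw table whose 24 value columns match no sample label was not used. Of the probes, 32034 had 1 gene in the platform annotation, 16 had several and 6452 were not listed. The background was taken from the mode of the values (6.35, SD 0.133, upper tail share 0.05). A probe was kept if it was above the limit on at least 3 arrays, which left 22094. Each gene was represented by its brightest kept probe.

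Groups were fitted with limma 3.58.1 in R 4.3.3 with 3 levels (p-p53, p-Foxo3a and WT) over 9 samples, two-sided, with Benjamini-Hochberg adjustment at 0.05. A fold against a group at background is a lower bound. The procedure was tested on simulated data. Genes were named by rule: the 14 of smallest p in each direction and the 6 of largest difference in each direction, all among genes whose groups did not overlap, a fixed set of genes, and up to 4 members of smallest p of each list. Genes of 1 sample and genes of chromosome runs were described after their values were seen. The members and lists were chosen with earlier results of these data known. A run held at least 10 genes. In all, 20 alternatives were planned and 3 were added after seeing the data.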

Additional observations from a re-analysis of the deposited data

Results flagged for a closer look

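Of 49 named genes tested for a WT sample far from the other 4, 3 had one, each time WT replicate 1. Chance alone gives about 1 in 20 such groups. Chil3 stood at 13.71 there, with the nearest other WT sample at 15.02, and Chil4 at 13.27, with the nearest at 14.82. Zfp36l1 stood at 10.81, with the nearest at 7.85. These values enter the estimate of spread of the 3 genes.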

How the results depend on the processing

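With 2 samples a side, single samples set many values. With 1 sample left out, the genes past an adjusted p of 0.05 in limma ran from 0 to 29. There were 12 without p-p53 replicate 3, 29 without p-Foxo3a replicate 4 and 1 without p-Foxo3a replicate 1 (Mpo). Of the genes named by rule, Chst15 passed without p-p53 replicate 3, and Rap1gap and Grb7 without p-Foxo3a replicate 4. The lone sample was then assumed to vary like the other groups. Genes with an unadjusted p under 0.05 ran from 525 to 1447 (544 without WT replicate 2), those higher in p-p53 from 265 to 702 (288 without WT replicate 2) and those lower from 256 to 745. Non-overlapping genes ran from 1842 to 4563 (higher) and from 1672 to 3986 (lower). The median of the G2/M genes ran from 0.14 to 0.72 and that of the immediate early genes from -1.43 to -0.20. Without p-p53 replicates 2 and 6, 1 gene passed (Pcdh7), 3575 and 3520 genes did not overlap, Mdm2 differed by 0.043 and the immediate early median was -0.20.

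Leaving out 1 sample other than the averaged p-p53 one turned the sign of several fixed genes. Phlda3 ran from -0.49 (without p-Foxo3a replicate 4) to 0.084 (without p-p53 replicate 3), Ccng1 from -0.31 to 0.035, Foxo3 from -0.73 to 0.075, Kit from -0.18 to 0.29, Hoxa9 from -0.34 to 0.46 and Xist from -1.87 to 0.20. With the setting without the averaged sample included, the lowest values of Phlda3 and Xist were -0.91 and -3.88. None of these genes had passed.

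With the 4 Terc-/- samples alone, 345 genes had an unadjusted p under 0.05, 139 of them higher in p-p53. With all arrays as separate samples the counts were 1211, 623 higher and 588 lower, and the neutrophil median was 0.16. With no filter on dim probes 473 were higher, and 2917 and 2728 genes did not overlap. With the background level subtracted, 1 gene passed, Rap1gap (limma, adjusted p = 0.0360, range over its alternatives 0.0248 to 1.00), and the medians of p53 targets and of PI3K and Akt genes were -0.26 and -0.087. With the level along each chromosome removed, an alternative added after seeing the data, Kit differed by -0.0054. The causes were not tested. No paired analysis was possible because the p-p53 replicates (2, 3 and 6) and the p-Foxo3a replicates (1 and 4) share no number.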

Other observations

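Terc-/- replicate 5, which has no phosphorylation status, was set in no group. Its level of Rap1gap was 9.06, of Trps1 9.07, of Satb1 11.60, of Phlda3 7.60 and of Fnbp1l 13.11. Otx1 stood at 6.33, Stfa1 at 15.14 and Chil3 at 14.42 in this sample, so that none of the levels particular to 1 other sample among these 3 genes appeared in it.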
